A study of Mus musculus with 2 samples.

Results

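Nucleolar ribosome biogenesis genes are the genes whose products make and process ribosomal RNA in the nucleolus and assemble it with ribosomal proteins. A set of 35 such genes was taken by symbol from the 32227 genes counted in this series, and all 35 were found. Each is described in cells of the pyrvinium library and cells of the DMSO library, a cell being a barcode with at least 13100 counts with pyrvinium or at least 9320 counts with DMSO.

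RNA polymerase I transcribes the ribosomal RNA precursor, which is modified by small nucleolar ribonucleoproteins (snoRNPs) of the box C/D and H/ACA classes. Large assemblies around the precursor, the small subunit processome among them, then fold, cut and package it into the 40S and 60S subunits. Many genes of this pathway are known targets of the transcription factor Myc, and dividing epithelial cells use the pathway heavily.

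Meta4 is a dysplastic organoid line from mouse stomach corpus that carries the transgene Mist1-CreERT2Tg/+, an inducible Cre recombinase under Mist1 control, and the allele LSL-K-ras(G12D)Tg/+, a mutant K-ras that Cre switches on. Both groups carry both. Organoids, labelled as dysplasia-induced in both groups, received pyrvinium, an anthelmintic drug, or the solvent DMSO, each for 1 day, before their shape was disrupted. The series asked which subpopulations of the organoids respond. Single-cell RNA sequencing with PIPseq, which captures the 3′ ends of polyadenylated RNA, gave 1 library of each group, all from 1 organoid line. No difference below therefore has a replicate check and none was tested. All intervals are 95% counting intervals, which take in no spread between organoids or between libraries, and cells are not replicates.

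The pyrvinium library held 854 cells with a median of 31517 counts and the DMSO library 1602 cells with a median of 18592.5 counts, 37046673 and 39980497 counts in all, and 0 cell barcodes were shared. Of the pyrvinium counts, 1.63% came from mitochondrially encoded genes and 30.5% from ribosomal protein genes, against 2.57% and 25.8% of the DMSO counts. All 8 epithelial markers were counted in both libraries, with sums of 5980 and 8904 counts per 1000000 (CPM). The gastric genes Tff1 (404 and 333 CPM) and Tff2 (33.7 and 30.2 CPM) were present, while the other 8 of 10 gastric markers, Muc5ac and the parietal cell gene Atp4b among them, stayed under 6 CPM in both. Fibroblast markers summed to 0.81 and 1.03 CPM and immune markers to 3.59 and 1.73 CPM, with Lyz2 at 0 counts in both libraries. Of the 5 endothelial markers Cdh5 was at 56.6 and 41.7 CPM and the other 4 were under 3 CPM.

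For most of the 35 genes the ratio of pyrvinium over DMSO was below 1, by modest amounts, and fewer passed the limit used. A gene was called lower or higher when its ratio passed 1.5-fold and the whole counting interval lay on that side of 1. By this rule 14 of 35 were lower, beside 15.5% of the 15586 genes measured, those with 20 or more counts over both libraries, and 0 were higher, beside 7.57%. Among the 6422 genes with a mean of at least 10 CPM the shares were 13.6% lower and 5.84% higher. The log2 ratio of pyrvinium over DMSO was below 0 for 31 of the 35, beside 8853 of the 15586 genes measured. Its median was -0.43 for the 35, against -0.08 over all 15586 genes. The 35 genes summed to 2912 CPM with pyrvinium and 3514 CPM with DMSO, a log2 ratio of -0.27 (interval -0.28 to -0.26). Npm1 and Ncl held 39.7% of the pyrvinium and 34.5% of the DMSO sum, and without them the sums were 1756 and 2303 CPM, a log2 ratio of -0.39. The lowest ratios belonged to Dkc1 and Nop2, which lie in different steps of the pathway, at 2.13-fold and 2.09-fold lower. Scaling moves every ratio alike: with the median of ratios of all genes in place of the total count, each log2 ratio was 0.09 higher, 12 of the 35 were lower, and the share of all genes was 12.5% lower and 10% higher.

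**Figure D1:**
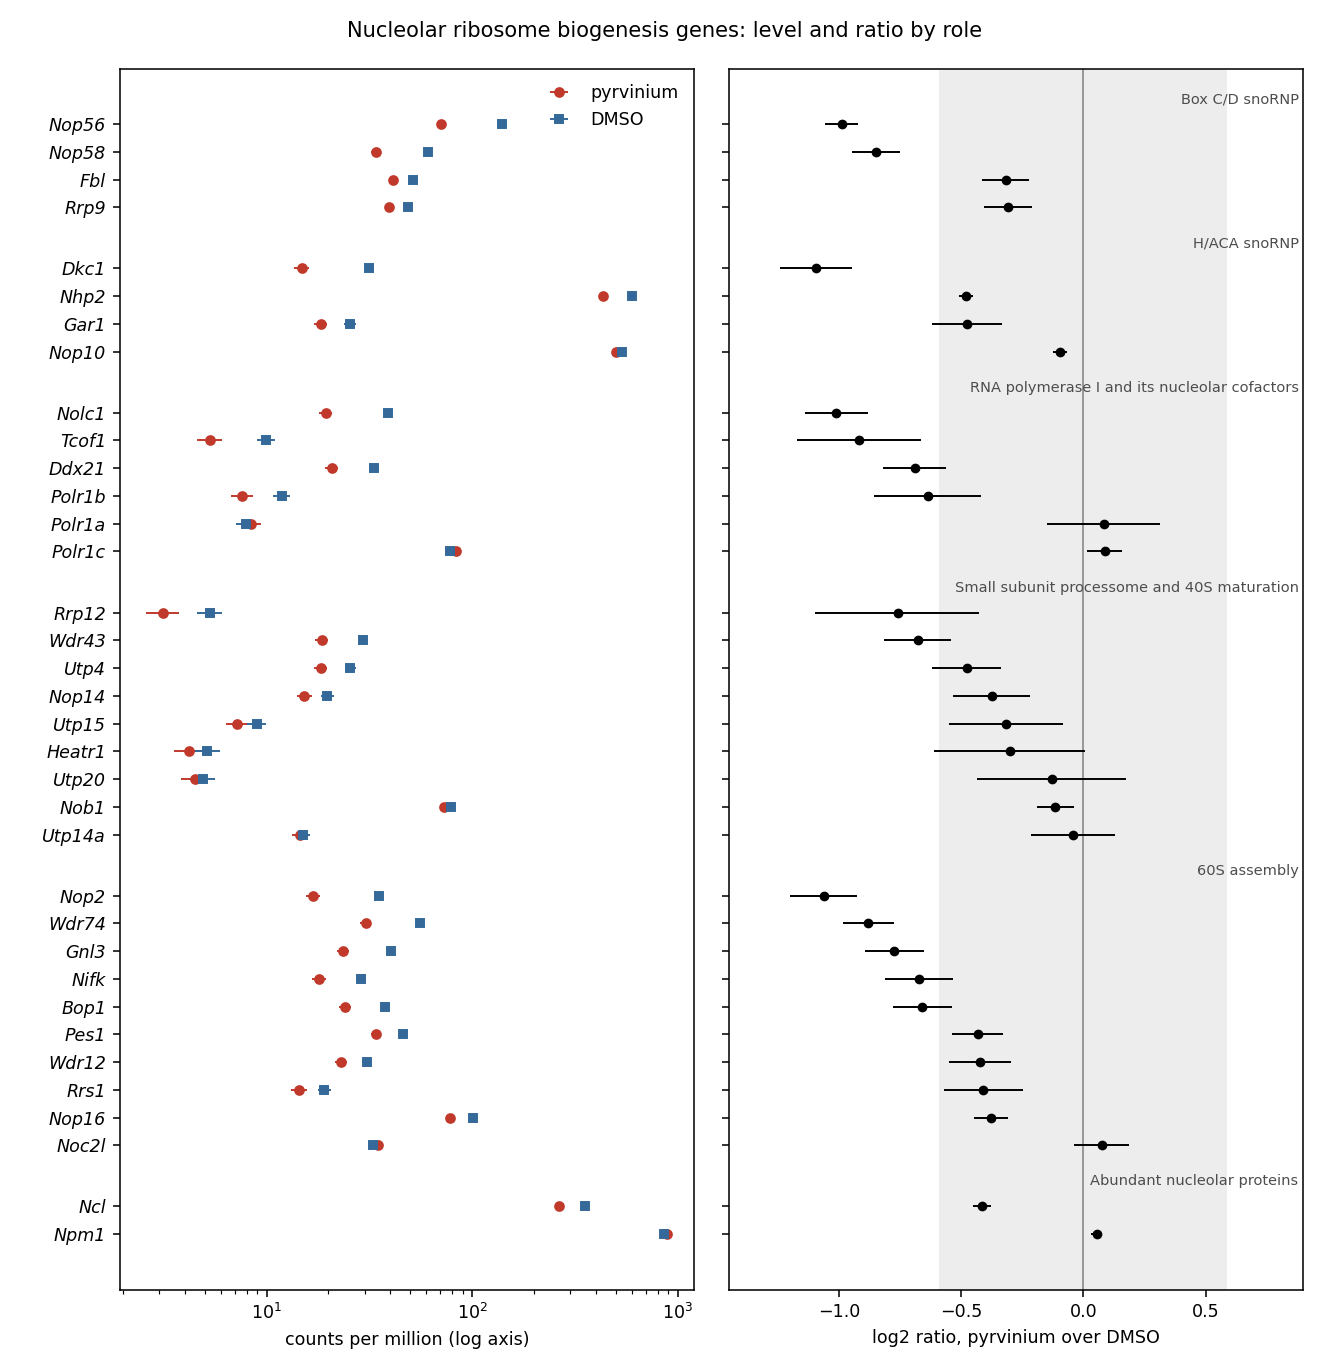
Level and ratio of the 35 genes, grouped by role. The left panel gives CPM over all cells on a log axis, circles for pyrvinium and squares for DMSO, and the right panel the log2 ratio of pyrvinium over DMSO, with 95% counting intervals in both; the grey band spans ratios under 1.5-fold. The 14 genes called lower lie left of the band and 31 of 35 lie left of 0.

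The stretches before the start sites of Dkc1 and Nop2 are shown because these genes had the lowest ratios of the set and because the letters CACGTG, an E-box to which Myc and Max can bind, occur before the start of Nop2 and not of Dkc1. The sequences are from RefSeq on build GRCm38.p6, whereas the counts were made on GRCm39, so the coordinates hold for GRCm38.p6 alone. Each is the 250 bases before the annotated start, read 5′ to 3′ on the gene's strand, with CACGTG in capitals. The Dkc1 stretch is chrX:75095604-75095853 and the Nop2 stretch chr6:125131633-125131882, both on the plus strand, and the E-box of Nop2 begins 60 bases before the start.
Dkc1: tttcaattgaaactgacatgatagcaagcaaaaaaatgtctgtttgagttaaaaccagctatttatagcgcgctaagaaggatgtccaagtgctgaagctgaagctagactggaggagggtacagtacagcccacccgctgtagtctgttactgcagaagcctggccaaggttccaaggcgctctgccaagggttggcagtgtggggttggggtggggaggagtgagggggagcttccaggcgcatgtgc
Nop2: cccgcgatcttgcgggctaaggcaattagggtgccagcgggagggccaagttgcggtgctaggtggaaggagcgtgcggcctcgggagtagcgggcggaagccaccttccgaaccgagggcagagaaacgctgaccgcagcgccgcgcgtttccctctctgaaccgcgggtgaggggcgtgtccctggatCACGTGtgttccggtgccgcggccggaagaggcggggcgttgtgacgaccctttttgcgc

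CACGTG reads the same on both strands. It was looked for in windows from 250 bases before to 50 bases after each start, which the RefSeq table holds for 29 of the 35 genes (the others are Rrs1, Rrp12, Bop1, Fbl, Tcof1 and Npm1). It occurred in 5 of the 29 (17.2%), in 21 of 101 other ribosome biogenesis genes (20.8%) and in 2187 of 27025 genes of the table (8.09%). Among genes called lower it was found in 2 of 11 (18.2%), among the rest of the set in 3 of 18 (16.7%). The 30 bases around it are shown for the 5 genes that hold it, with CACGTG in capitals. It begins 60 bases before the start of Nop2, and 2, 15, 17 and 37 bases after the starts of Pes1, Utp4, Wdr43 and Utp20.
Nop2: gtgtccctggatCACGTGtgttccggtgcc
Pes1: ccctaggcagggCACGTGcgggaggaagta
Utp4: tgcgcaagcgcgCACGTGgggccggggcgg
Wdr43: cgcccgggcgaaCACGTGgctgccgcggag
Utp20: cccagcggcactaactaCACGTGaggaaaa

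The core proteins of the box C/D snoRNPs, which guide methylation of ribosomal RNA, were split, with the paired scaffold genes low and the others less so. Nop56 (ENSMUSG00000027405), a scaffold protein of these particles, was at 70.8 CPM (68.1 to 73.6) with pyrvinium and 140 CPM (137 to 144) with DMSO. Its log2 ratio was -0.99 (-1.06 to -0.92), 1.98-fold lower. Its partner Nop58 was at 34.1 and 61.4 CPM (log2 ratio -0.85, interval -0.95 to -0.75). The intervals of both levels were apart between the libraries for both genes. Fbl, fibrillarin, the methyltransferase of the particles, was at 41.4 and 51.6 CPM, a log2 ratio of -0.32, and Rrp9, a protein specific to the U3 particle, at 39.6 and 49.0 CPM, a log2 ratio of -0.31. Neither passed 1.5-fold. So 2 of 4 were lower, beside 15.5% of all genes, with a median log2 ratio of -0.58.

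H/ACA snoRNPs convert uridines of ribosomal RNA to pseudouridine, and the 4 proteins of their core ran from the lowest ratio of the set to near 0. Dkc1 (ENSMUSG00000031403), the pseudouridine synthase dyskerin, was at 14.8 CPM (13.6 to 16.1) with pyrvinium and 31.6 CPM (29.9 to 33.4) with DMSO. Its log2 ratio of -1.09 (-1.24 to -0.95) was the lowest of the set. Gar1 was at 18.3 and 25.5 CPM and Nhp2 (ENSMUSG00000001056) at 432 CPM (425 to 438) and 602 CPM (594 to 610), both with a log2 ratio of -0.48 and both under the limit. Nop10 (ENSMUSG00000027133), a small protein of the core, was at 504 CPM (497 to 512) with pyrvinium and 539 CPM (532 to 546) with DMSO, a log2 ratio of -0.10 (-0.12 to -0.07). Of the 4, Dkc1 alone passed the limit over all cells, beside 15.5% of all genes. With cells limited to at most 9 counts of hypoxia response transcripts, a setting described below, Nhp2 and Gar1 passed it too, beside 19.4% of all genes.

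RNA polymerase I subunits and the cofactors that act on them in the nucleolus did not move together. Nolc1 (ENSMUSG00000015176), the phosphoprotein Nopp140 that ties snoRNPs to the nucleolus, was at 19.4 CPM (18.0 to 20.9) with pyrvinium and 39.0 CPM (37.1 to 41) with DMSO. This was 2.01-fold lower, a log2 ratio of -1.01 (-1.14 to -0.88). Tcof1, treacle, a partner of Nolc1, had little depth at 5.29 CPM (4.58 to 6.09) and 9.98 CPM (9.02 to 11), a log2 ratio of -0.92 (-1.17 to -0.67). Ddx21, an RNA helicase of the nucleolus, was at 20.8 and 33.5 CPM (log2 ratio -0.69), and Polr1b, the second largest subunit, at 7.61 and 11.8 CPM (-0.64). These 4 of the 6 genes were called lower, beside 15.5% of all genes. Polr1a, the largest subunit, was at 8.42 and 7.95 CPM, with an interval of the log2 ratio from -0.15 to 0.31. Polr1c (ENSMUSG00000067148), a subunit shared with RNA polymerase III, was at 83.4 CPM (80.5 to 86.4) and 78.5 CPM (75.8 to 81.3), a log2 ratio of 0.09 (0.01 to 0.16), the highest of the set. Both signs turned, to -0.19 and -0.01, when cells were limited to those with at most 9 hypoxia response counts. With barcodes of at least 3000 counts the log2 ratio of Polr1a moved by -0.15, which also turned its sign.

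For the small subunit processome and the factors of late 40S maturation, 2 of 9 were lower, not far from the 15.5% of all genes, and the median log2 ratio was -0.32. Wdr43, a WD40 repeat protein of the early processome, was at 18.5 and 29.6 CPM, a log2 ratio of -0.68 (-0.81 to -0.54). Rrp12, known for export of the 40S precursor, was the least counted of the set at 3.13 CPM (2.59 to 3.76) with pyrvinium and 5.30 CPM (4.61 to 6.07) with DMSO, a log2 ratio of -0.76 (-1.10 to -0.43). Those 2 were the genes called lower. Utp4, a partner of Wdr43, was at 18.4 and 25.5 CPM (-0.48), and Nop14, a processome factor, at 15.3 and 19.8 CPM (-0.38). Utp15 was at 7.21 and 8.98 CPM (-0.32). For Heatr1 (4.18 and 5.15 CPM) and the scaffold protein gene Utp20 (4.48 and 4.90 CPM) the interval of the ratio held 0, so a difference was not detectable at this depth. Nob1 (ENSMUSG00000003848), the nuclease that makes the final cut of the small subunit RNA, was at 73.3 CPM (70.6 to 76.1) and 79.3 CPM (76.6 to 82.1), a log2 ratio of -0.11 (-0.19 to -0.04). Utp14a (ENSMUSG00000063785), a processome factor, was at 14.5 CPM (13.3 to 15.8) and 15 CPM (13.8 to 16.2), a log2 ratio of -0.04 (-0.21 to 0.13), which was 0.04 under scaling by the median of ratios.

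Of the 10 genes of 60S assembly, 5 were lower, beside 15.5% of all genes, with a median log2 ratio of -0.55. Nop2 (ENSMUSG00000038279), a methyltransferase of the large subunit RNA whose promoter is shown above, was at 16.8 CPM (15.5 to 18.2) with pyrvinium and 35.1 CPM (33.3 to 37.0) with DMSO. Its log2 ratio was -1.06 (-1.20 to -0.92). Wdr74 (ENSMUSG00000042729), which works in early 60S particles, was at 30.4 CPM (28.6 to 32.2) and 55.9 CPM (53.6 to 58.3), a log2 ratio of -0.88 (-0.98 to -0.78). Gnl3, nucleostemin, a GTP-binding protein of the nucleolus, was at 23.6 and 40.3 CPM (-0.77). Nifk, a nucleolar protein that binds Ki-67, was at 18.0 and 28.7 CPM (-0.67). Bop1, Pes1 and Wdr12 encode 1 complex, PeBoW, needed to process the large subunit RNA, and had log2 ratios of -0.66, -0.43 and -0.42. Of these 3 only Bop1, at 24.0 and 37.9 CPM, passed the limit, but the intervals of all 3 lay below 0.

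The 60S genes that did not pass the limit included the group's most counted member. Nop16 (ENSMUSG00000025869), a 60S assembly factor, was at 77.9 CPM (75.1 to 80.8) with pyrvinium and 101 CPM (98.1 to 104) with DMSO, a log2 ratio of -0.38 (-0.45 to -0.31). Rrs1, which helps to place the small RNA of the large subunit, was at 14.4 and 19.1 CPM (-0.41). Noc2l (ENSMUSG00000095567), the counterpart of a yeast 60S export factor, was at 34.8 CPM (32.9 to 36.7) and 33 CPM (31.2 to 34.8), a log2 ratio of 0.08 (-0.04 to 0.19). Over 10 alternative settings its log2 ratio ran from -0.07 to 0.18, so its sign did not hold in all.

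Of the 2 abundant nucleolar proteins, neither passed the limit. Ncl, nucleolin, which binds ribosomal RNA precursors, was at 266 CPM (260 to 271) with pyrvinium and 354 CPM (348 to 360) with DMSO, a log2 ratio of -0.41 (-0.45 to -0.38). Npm1 (ENSMUSG00000057113), nucleophosmin, a histone and ribosome chaperone, was at 890 CPM (881 to 900) and 857 CPM (848 to 866), a log2 ratio of 0.05 (0.03 to 0.08). Its sign turned to -0.04 in cells with at most 9 hypoxia response counts. Npm1 has processed pseudogenes, and how reads that match several places were counted is not given in the sources used here.

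Exons of 10 of the 35 genes overlap a protein-coding exon on the other strand in GENCODE M21, and it is not given whether counting used strand, so reads of the partners cannot be told apart. They include Nop56 with Idh3b, Dkc1 with Mpp1, Bop1 with Mroh1 and Gnl3 with Pbrm1, the 4 among them that were called lower. Under the partners' own names, Mpp1 and Pbrm1 had log2 ratios of -0.26 and -0.22, and Mroh1 and Idh3b 0.41 and 0.39, and 0 of the 10 partners passed the limit. Carf, the partner of Wdr12, was at 2443 CPM with pyrvinium and 1666 CPM with DMSO, a log2 ratio of 0.55, against 23.1 and 30.9 CPM counted for Wdr12, whose value is therefore uncertain. The 25 genes without such a partner had 10 lower, beside 15.5% of all genes measured, and a median log2 ratio of -0.41.

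The rest of the pathway showed a like spread. A further 125 ribosome biogenesis genes were chosen by textbook role and hold none of the 35. Of these 43 were lower, beside 15.5% of all genes measured, and 0 higher, beside 7.57%. Their median log2 ratio was -0.44, with sums of 4223 CPM for pyrvinium and 5139 CPM for DMSO. Under scaling by the median of ratios 37 were lower, beside 12.5%, and 1 higher, beside 10%. The counts by role that follow are from total-count scaling and stand beside the 15.5%. The lowest and highest genes named for each role are those among the genes that reached 10 CPM in a library. The machinery that assembles snoRNPs had the lowest median, -0.74, with 5 of 8 lower. Znhit3 (21.3 and 43.0 CPM, log2 ratio -1.01) and Ruvbl1, an ATPase of the assembly chaperone (25.7 and 51.4 CPM), were the lowest there. Pih1d1 of the same chaperone had a log2 ratio of -0.37 and Nufip1 one of 0.03.

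RNA polymerase I transcription factors and subunits outside the 35 had 4 of 12 lower and a median log2 ratio of -0.32. Cd3eap, the older name of the subunit Polr1g, was at 6.59 CPM with pyrvinium and 22.1 CPM with DMSO, 3.35-fold lower, and the subunit gene Polr1e at 5.02 and 11.2 CPM (log2 ratio -1.15). Polr1h, a further subunit, had a log2 ratio of 0.14. Taf1c, of the promoter selectivity factor, was at 127 and 95.9 CPM (0.40). Subunits of the same enzyme thus had ratios on both sides of 0, as Polr1a, Polr1b and Polr1c did.

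Small subunit factors outside the 35 had 13 of 40 lower, with a median log2 ratio of -0.46. Among those reaching 10 CPM the lowest were Tsr2, a chaperone of a 40S protein (6.75 and 13.7 CPM, -1.02), and Imp4, a U3 particle protein (40.6 and 79.3 CPM, -0.97). Imp3, which works beside Imp4, was at 149 CPM in both libraries, and Utp11 at 77.1 and 76.7 CPM. Of 50 further 60S factors 15 were lower (median -0.37). They ran from Ppan, at 20.1 and 47.3 CPM (-1.24), and Rrp1b (-0.96) to Nsa2 (0.35) and the GTPase gene Gtpbp4, at 33.1 and 23.3 CPM (0.51). Of 15 genes of the RNA exosome and of precursor trimming 6 were lower (median -0.27). Exosc8, an exosome subunit, was at 24.5 and 52.0 CPM (-1.08) and Nol12 had a log2 ratio of -0.77, while the subunit gene Exosc4 and the exosome helicase gene Mtrex were at -0.01 and 0.04.

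**Figure D2:**
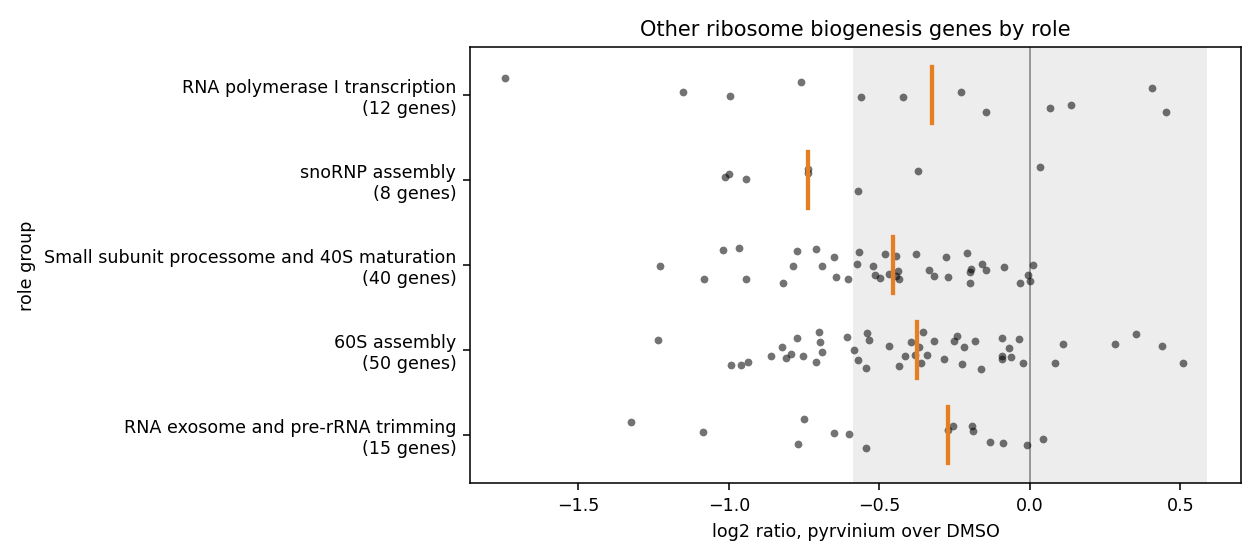
Log2 ratio of pyrvinium over DMSO for the 125 further ribosome biogenesis genes by role group. Each point is a gene, its height within a group has no meaning, the orange bar is the group's median and the grey band spans ratios under 1.5-fold; 43 points called lower lie left of the band and 0 right of it.

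Genes of the ribosome's own proteins lay on the other side of 0 from most genes that build it. Of 86 measured cytosolic ribosomal protein genes 0 were lower, beside 15.5% of all genes, and 0 higher, beside 7.57%. For 79 of the 86 the log2 ratio was above 0, beside 6733 of the 15586 genes measured, and the median of the 86 was 0.26. That median lay between 0.24 and 0.35 under the alternative scalings and choices of cells, and was 0.20 in S cells, 0.24 in G2M cells and 0.24 against DMSO cells rich in hypoxia transcripts. Among the 11 Myc network genes 6 were lower, beside 15.5% of all genes, and 0 higher, beside 7.57%. The interval of the ratio held 0 for 3 of the 11. Myc itself was at 30.6 CPM with pyrvinium and 66.6 CPM with DMSO, a log2 ratio of -1.12 (-1.22 to -1.02). Its partner Max was at 26.9 and 40.3 CPM (-0.58), just under the limit, and the Max-binding repressors Mxd1, Mxd4 and Mxi1 had log2 ratios of -0.81, -1.24 and -0.61. Mlx, a relative of Max, was at 43.6 and 41.9 CPM (0.06).

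Single cells were compared after each was thinned at random to 9000 counts. The 35 genes then had a median of 26 counts per cell with pyrvinium (quartiles 21 and 31, 90th percentile 37) and 29 with DMSO (quartiles 21 and 39, 90th percentile 48). The lower quartiles were equal, and the upper quartile and 90th percentile were higher with DMSO. The 10th percentile was lower with DMSO, at 15 counts against 17 with pyrvinium, so DMSO cells spread wider at both ends. Of pyrvinium cells 62.3% lay under the DMSO median. The coefficient of variation was 0.30 among pyrvinium cells, where counting alone gives 0.19, and 0.43 among DMSO cells, where counting alone gives 0.18. Nop56 was counted in 42.5% (39.2 to 45.9, exact binomial) of thinned pyrvinium cells and 59.6% (57.2 to 62.0) of thinned DMSO cells. Without thinning the shares were 79.0% and 76.6%, at median depths of 31517 and 18592.5 counts. Free RNA at an assumed 10% of a cell's counts would alone give 8.02% and 14.5%. No cell type that lacks the gene was identified in these libraries.

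**Figure D3:**
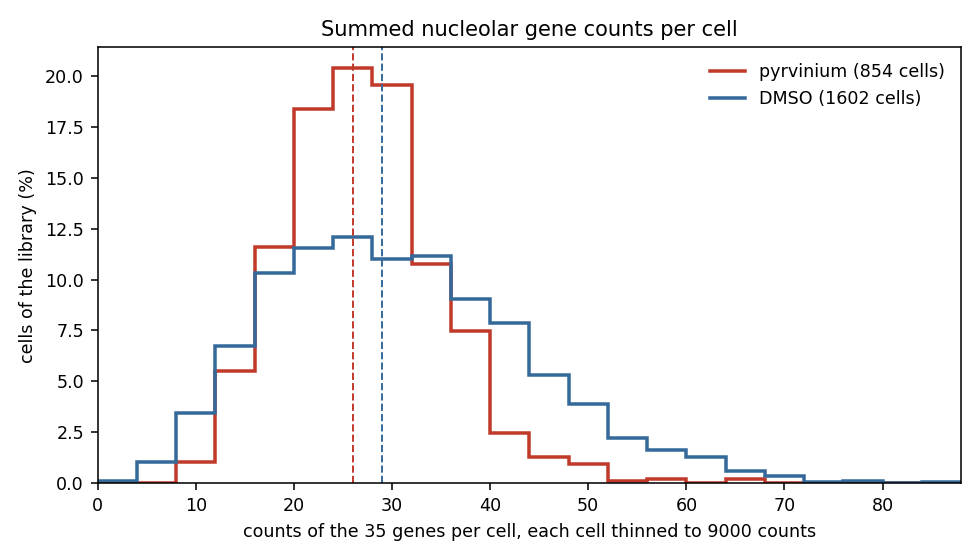
Distribution over cells of the summed counts of the 35 genes, each cell thinned to 9000 counts, as the percentage of a library's cells in bins of 4 counts. Dashed lines mark the medians, 26 with pyrvinium and 29 with DMSO. The DMSO curve reaches further both to the left and to the right.

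Within the pyrvinium library the genes varied together from cell to cell less than within the DMSO library. Splitting the list into genes of odd and even place, the Spearman correlation of their sums over cells was 0.24 for pyrvinium (854 cells) and 0.64 for DMSO (1602 cells). The sum of the 35 correlated with that of the 125 further biogenesis genes at 0.39 and 0.76, with S phase genes at 0.19 and 0.57, and with the hypoxia response list at 0.12 and -0.58. With Myc, at a mean of 0.29 and 0.58 counts per thinned cell, it was 0.06 and 0.05, too weak to read in counts this sparse. The S phase list had a mean of 5.34 and 10.7 counts per thinned cell and the hypoxia list one of 4.92 and 17.3. The part of the fewer counts with pyrvinium in the correlations was not tested. The cells of each value share a library and a thinned depth, and these are descriptions with no test.

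Barcodes with 100 to 500 counts, 52181 in the pyrvinium and 48342 in the DMSO library, were taken as free RNA. The 35 genes made up 0.31% of free counts with pyrvinium and 0.38% with DMSO, and their median log2 ratio there was -0.57, against -0.07 over the 6422 genes with a mean of at least 10 CPM in cells. In free RNA 32 of the 35 had a higher CPM than in cells of the pyrvinium library, and 31 a higher CPM than in cells of the DMSO library. The same held for 4780 and 4598 of those 6422 genes, so most genes shared this direction.

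Cells were called S, G2M or neither from lists that hold none of the 35 genes. Of pyrvinium cells 12.2% were called S, 16.2% G2M and 71.7% neither, against 31.1%, 26.4% and 42.5% of DMSO cells. The S phase list was lower for 35 of its 42 genes and the G2M list for 38 of 54, beside 15.5% of all genes. In S cells (104 and 498) the 35 genes summed to 3348 CPM with pyrvinium and 4149 CPM with DMSO, and 14 of 35 were lower, beside 11.5% of all genes, and 0 higher, beside 6.61%. In G2M cells (138 and 423) they summed to 3070 and 3876 CPM, and 17 were lower, beside 14.3%, and 0 higher, beside 10.1%. In cells called neither (612 and 681) the sum had the other sign, with 2791 CPM for pyrvinium and 2610 CPM for DMSO, a log2 ratio of 0.10 (0.08 to 0.12). Without Npm1 and Ncl that log2 ratio was 0.06 (0.04 to 0.08). Gene by gene the 35 had a median log2 ratio of -0.02 in these cells, with 18 of 35 below 0.

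Among those cells called neither, Nop56 and Nop2 were the 2 genes lower, beside 12.9% of all genes, and Utp20 the 1 higher, beside 8.0%. Nop56 was at 57.7 CPM with pyrvinium and 88.8 CPM with DMSO there, and Nop2 at 15.1 and 23.3 CPM. Utp20 was at 4.64 and 2.63 CPM, on 119 and 38 counts. Dkc1, at 13.4 and 17.5 CPM, had a log2 ratio of -0.39 (-0.63 to -0.15) in these cells, against -0.93 in S cells and -1.23 in G2M cells. With equal weight for the 3 kinds of cell in both libraries, 9 of 35 stayed lower, beside 13.6% of all genes, and Polr1b, Ddx21, Wdr43, Bop1 and Nifk came under the limit. The calls also read free RNA and depth, and 93 pyrvinium and 136 DMSO cells lay within 0.02 of the cut between calls.

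**Figure D4:**
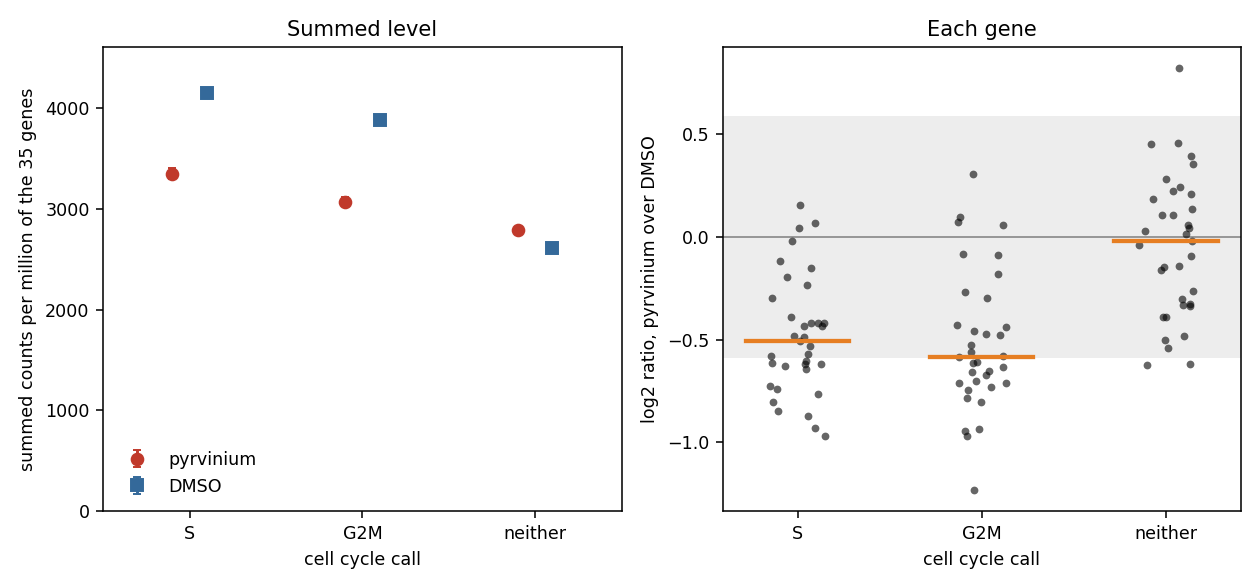
The 35 genes by cell cycle call. The left panel gives their summed CPM with 95% counting intervals for pyrvinium and DMSO, and the right panel each gene's log2 ratio of pyrvinium over DMSO with the median as an orange bar; the grey band spans ratios under 1.5-fold. The sums lie apart in S and G2M cells, 3348 and 4149 CPM in S, and close together in cells called neither.

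Inside the pyrvinium library, S cells had 10 of 35 genes higher than cells called neither, beside 7.27% of all genes, and G2M cells had 2, Nop56 and Tcof1, beside 7.26%. Inside the DMSO library S cells had 23 higher, beside 14.9%, and G2M cells 19, beside 13.5%. In each of these comparisons 0 of the 35 were lower, beside 2.26% and 3.12% of all genes in S and G2M cells of the pyrvinium library and 8.47% and 11.9% in those of the DMSO library. In the pyrvinium library the 10 genes higher in S cells were Nop56, Nop58, Dkc1, Polr1b, Tcof1, Nolc1, Utp15, Wdr43, Rrp12 and Nop2. All 4 box C/D and all 4 H/ACA genes were higher in both S and G2M cells of the DMSO library. Whether these differences between phases differ between the libraries was not tested, since each library is 1 sample.

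Cells were also grouped by hypoxia response transcripts, a list of 14 genes that includes Ankrd37 and Bnip3, in which DMSO cells differed widely. In pyrvinium cells with 0 to 2, 3 to 5, 6 to 10 and 11 to 20 hypoxia counts per thinned cell the 35 genes summed to 2669, 2930, 3010 and 3255 CPM, and 0 pyrvinium cells had more than 20. In DMSO cells of the same classes they summed to 4360, 4121, 3865 and 3304 CPM, and in those with 21 to 40 and with 41 or more hypoxia counts to 2575 and 1862 CPM. The sums were thus higher in each next class among pyrvinium cells and lower in each next class among DMSO cells. They lay far apart in cells with the fewest hypoxia counts, and at 11 to 20 counts they were 3255 CPM (3164 to 3348) in 40 pyrvinium cells and 3304 CPM (3262 to 3347) in 270 DMSO cells. Over the same DMSO classes the share of cells called S or G2M went down as well, being 81.4% in the first class and 14.8% in the last. Over the pyrvinium classes it was 27.8%, 30.1%, 26.8% and 25%, against 81.4%, 77.3%, 67.9% and 54.1% in DMSO cells of the same classes. The part of the cell cycle in these sums was not tested.

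**Figure D5:**
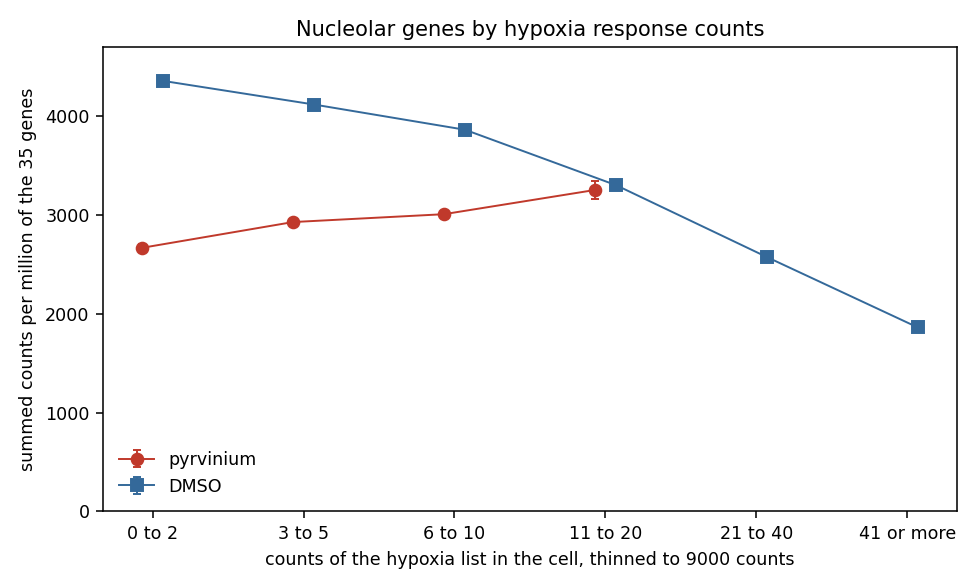
Summed CPM of the 35 genes, with 95% counting intervals, in cells grouped by their counts of the hypoxia response list after thinning to 9000 counts. Circles are pyrvinium cells and squares DMSO cells; the 0 pyrvinium cells above 20 counts leave the last classes to DMSO, where the sum is down to 1862 CPM.

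Hypoxia-rich DMSO cells, the 414 with at least 23 hypoxia counts, were set against hypoxia-poor DMSO cells, the 514 with at most 4, the limits being the outer quartiles. The 35 genes summed to 2212 CPM in hypoxia-rich and 4285 CPM in hypoxia-poor cells. In hypoxia-rich cells 30 of 35 were lower, beside 25.3% of all genes, and 0 higher, beside 14.7%, with a median log2 ratio of -1.19. Bop1 was at 12.4 and 52.8 CPM, 4.27-fold lower. Dkc1 was at 10.8 and 39.9 CPM, and Nhp2, which had not passed the limit between the libraries, at 255 and 817 CPM. All 10 genes of 60S assembly and all 8 snoRNP genes were lower in hypoxia-rich cells. The 5 genes that were not were Polr1c, Utp14a, Nop14, Nob1 and Npm1. Ribosomal protein genes had a median of 0.03 in this comparison.

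These classes are ranges of a count and not cell types. Within 1 count of the limits lay 43 cells at the upper and 361 at the lower. Of hypoxia-rich cells 21.7% and of hypoxia-poor cells 79.4% were called S or G2M, with median S phase counts of 3 and 13, and median integrated stress response counts of 26 and 10. Within S cells the hypoxia-rich had 14 of 35 genes lower (beside 10.9% of all genes, on 34 and 245 cells), within G2M cells 22 (beside 13.0%) and within cells called neither 26 of 33 measured (beside 24.4%). Higher in them were 0 genes in S cells (beside 8.48%), Utp14a in G2M cells (beside 14.2%) and 0 in cells called neither (beside 11.4%). The part of cell cycle and stress transcripts in these levels was not tested.

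Set against these ranges, pyrvinium cells lay between them. Against the 514 hypoxia-poor DMSO cells, all pyrvinium cells together had 25 of 35 genes lower, beside 19.4% of all genes, and 0 higher, beside 11.7%, with a summed log2 ratio of -0.56. Against the 414 hypoxia-rich cells they had 0 lower, beside 11.6%, and 11 higher, beside 12.5%, with a summed log2 ratio of 0.40. Among the 11 were Rrp9, Gar1, Nhp2, Nop10 and Bop1. These comparisons share the pyrvinium cells. Limited in both libraries to cells with at most 9 hypoxia counts, 793 and 856 cells, 24 of the 35 genes were lower, beside 19.4% of all genes, and the median log2 ratio was -0.76. In this setting Dkc1 had a log2 ratio of -1.51 and Nop2 -1.42, and Nhp2, Gar1, Ncl, Pes1, Nop16 and 5 others also passed the limit.

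Depth, cell cycle and stress moved with the libraries beside these genes. In cells of 13100 to 20000 counts the summed log2 ratio was -0.12, and in the 4 deeper ranges up to 100000 counts it lay between -0.30 and -0.25. Integrated stress response genes differed in the same comparison, with 19 of 24 higher, beside 7.57% of all genes. Among them Ddit3 was at 311 CPM with pyrvinium and 39.1 CPM with DMSO. Hypoxia response genes differed too, with 12 of 14 lower, beside 15.5%. Over pyrvinium cells the 35 genes correlated with the stress list at -0.08 and over DMSO cells at -0.23. Their part in the levels of the 35 genes was not tested.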

How the data were processed

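Per the labels, PIPseq libraries of pyrvinium-treated and DMSO-treated Meta4 organoids were sequenced, 1 each. The deposited matrices hold raw counts per gene and barcode, whole numbers that were not normalized. Per the submitters' processing notes the genome build was GRCm39 and Partek was used. The sources used here do not give the aligner, counter, annotation, strand setting or barcode filter, nor whether a count is a molecule.

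Barcodes at or above 13100 (pyrvinium) or 9320 (DMSO) counts were taken, a limit at 1/10 of the count at the 99th percentile among the 2000 largest barcodes, and were kept as cells with no other filter and doublets left in. Counts were summed per library and scaled to CPM, with exact Poisson 95% intervals and log2 ratios with exact conditional binomial 95% intervals. A count of 0 was set to a floor of 3. Captured 3′ ends are not divided by length, and levels set beside each other for different genes, as for Carf and Wdr12, are of counts alone. The differences were not tested, there being 1 library in each group. Cells were thinned to 9000 counts, which left out 0 cells. S and G2M calls used Scanpy 1.11.5 gene scores. Python 3.11.15, NumPy 2.4.6, pandas 2.3.3, SciPy 1.17.1 and Matplotlib 3.10.9 were used. On simulated Poisson counts for 15204 genes, 95.9% of intervals held the true ratio, 100% of 2-fold changes were called, as were 0.886% of unchanged genes. The simulation held no spread between libraries, so these values speak to counting error alone. The changed genes, 50 per fold, were drawn from genes above a minimum DMSO level. The 100% therefore does not cover the least counted genes.

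The 35 genes and all lists were chosen with earlier results of these data known. Full values are given for the 5 lowest and 5 highest ratios where either library reached 10 CPM and for the most counted gene of each role. Among other biogenesis genes, the 2 lowest and 2 highest of each role with at least 10 CPM are named, and of the Myc network all with at least 10 CPM. Gastric markers, the hypoxia ranges and the exon partners were added after the data were seen. Alternatives were other count thresholds, a depth range, scalings, weights of cells and phases, free RNA subtraction, doublet removal, another fold limit and no minimum count. Several genes share 1 symbol for 27 symbols, and the lowest Ensembl number was used.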

Additional observations from a re-analysis of the deposited data

How the results depend on the processing

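With all cells and total-count scaling, 14 of 35 genes were lower, their median log2 ratio was -0.43 and their summed log2 ratio -0.27; the 125 further biogenesis genes had a median of -0.44. No gene called lower changed sign in any alternative run, and 0 of the 35 were higher in any. The medians of the 35 and of the 125 and the sum of the 35 were -0.41, -0.42 and -0.24 with barcodes of at least 3000 counts; -0.52, -0.47 and -0.33 with at least 20000; -0.37, -0.42 and -0.24 in cells of 15000 to 40000 counts; -0.35, -0.36 and -0.19 scaled without mitochondrial and ribosomal protein genes; -0.35, -0.35 and -0.19 by the median of ratios; -0.36, -0.40 and -0.19 as a mean over cells; and -0.38, -0.35 and -0.21 with equal phase weights. Equal phase weights left 9 of 35 lower (13.6% of all genes). A limit of 0.32 on the log2 scale in place of 0.58 gave 23 of 35 and 74 of 125 lower (25.3% of all genes) and 5 of 125 higher (14.5%). In the main setting 0 of the 125 were higher (7.57% of all genes). In cells of 15000 to 40000 counts 1 of the 125 was higher (8.7% of all genes). The count was also 1 when scaled without mitochondrial and ribosomal protein genes (9.73%) or by the median of ratios (10%). It was 1 again without the top 5% of cells by Scrublet score (7.57%) and with equal phase weights (7.92%). In cells with at most 9 hypoxia counts, an alternative chosen after seeing the data, 24 of 35 and 68 of 125 were lower (19.4% of all genes), with medians of -0.76 and -0.68 and a sum of -0.52. The cause of these shifts was not tested. Over 10 of the alternatives, Nop56, Nop58, Dkc1, Tcof1, Nolc1, Nop2, Wdr74 and Gnl3 were lower in all 10, Ddx21 and Nifk in 9, Wdr43 and Rrp12 in 8, and Polr1b and Bop1 in 5.

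No paired analysis was possible because there is 1 library per group, and leaving out a library was not done for the same reason. Intervals cover counting error only. Fewer but deeper cells were kept with pyrvinium. Genes under 10 CPM, such as Rrp12, Heatr1 and Utp20, have wide intervals.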
